A study of Mus musculus with 78 samples.

Results

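Males and females were compared within the soleus of aged C57Bl/6 mice, over the autosomal genes of 17 bulk RNA libraries: 10 from males (M) and 7 from females (F), all 28 months old, untreated, on control feed and labelled batch 2. Each library is labelled as a separate mouse, written here by sex and replicate number as F1 to F7 and M1 to M10. Sex chromosome genes were set aside, which left 33705 autosomal gene IDs, of which 14576 passed a filter on low counts and were tested. The series holds 78 soleus libraries of mice of 4 ages, with a further group of 28-month males whose feed held 2% calcium alpha-ketoglutarate (CaAKG). Separate mice allow the same comparison elsewhere in the series: 5 M and 6 F control libraries of 28 months in batch 1, and 9 M and 6 F of 20 months in batch 1. No library is shared between these comparisons. The batch 1 and 20-month libraries were sorted by their sex label, and the label check given below covers the batch 2 libraries alone.

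Soleus is a postural hindlimb muscle that in mice mixes slow, oxidative fibres with fast oxidative fibres. The contractile speed of a fibre follows its myosin heavy chain: Myh7 marks slow fibres, Myh2 fast oxidative fibres, and Myh1 and Myh4 the faster types. Male and female rodent muscles are known to differ in fibre size, fibre type and fuel use, and androgens, oestrogens, growth hormone and thyroid hormone all act on muscle. In bulk RNA, fewer cells of a type and less RNA per cell cannot be told apart.

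The labels held in all 17 libraries: Xist, the noncoding RNA of the inactive X chromosome, was at 110.7 to 194 CPM (counts per 1e6 of a library) in F and at 0 in M. The Y-linked Ddx3y was at 75.1 to 108 CPM in M and at 0 in F. Library totals were 28.5 to 42.2 x 1e6 counts in F and 30.003 to 70.5 x 1e6 in M. Transcripts of the mitochondrial genome took 12.6% to 19.3% of the counts in F and 16.5% to 22.3% in M. M4 stood apart by skin transcripts: its 14 keratinocyte markers summed to 721 CPM, against 6.23 to 20.9 CPM in the other 16 libraries, so counts are given with and without it. M1 and M2 stood apart by Myh4, which made up 17.4% and 17.8% of their heavy chain transcripts, and F7 by lipid genes such as Fasn. In batch 1, 3 of the 6 females of 28 months carried summed keratinocyte or neutrophil markers above 100 CPM.

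At an adjusted p under 0.05 (edgeR quasi-likelihood test, Benjamini-Hochberg over all genes), 682 autosomal genes differed between M and F, which is 4.68% of those tested. Of these, 365 (2.5%) were higher in M and 317 (2.17%) were higher in F. Most differences were small: the median size of the called differences was 0.47 on the log2 scale, and 86 genes differed by at least 2-fold. The levels of the 2 sexes did not overlap at all for 96 genes (0.659%), 93 of them called. On the X chromosome 34 of 492 genes (6.91%) were called. Across autosomes the called share ran from 3.46% on chromosome 5 to 5.69% on chromosome 12. Without M4 the count was 490 (3.38%), and 475 genes were called in both fits. Over the 17 leave-one-out fits, each without 1 library, the count was 324 to 1018. It was over 1.5 times lower without F1 (381), F4 (324), F6 (381), M3 (448), M9 (419) or M10 (432), and 273 genes were called in every such fit.

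The clearest male-high genes were low in every female library. Slc15a5, a member of the proton-coupled peptide transporter family (chr6:137983586-138079916, minus strand), was at 0.254, 0.519 and 0.869 CPM in F and 2.92, 6.91 and 10.1 CPM in M (lowest, median and highest library; CPM on a common TMM scale). Every male library lay above every female one, and the difference was 3.84 ± 0.29 on the log2 scale (SE; adjusted p = 5.26e-08). C7, which encodes a late complement component of the membrane attack complex (chr15:4988762-5063740, minus strand), was at 0.828, 1.41 and 2.35 CPM in F and 8.63, 13.0 and 20.6 CPM in M. Its groups did not overlap either, with a log2 fold change of 3.14 ± 0.25 (adjusted p = 1.13e-07). Cds1, an enzyme that makes CDP-diacylglycerol for phospholipid synthesis (chr5:101765130-101823858, plus strand), was at 2.00, 2.83 and 2.99 CPM in F and 7.97, 11.1 and 15.5 CPM in M, again without overlap (2.09 ± 0.15, adjusted p = 1.45e-08).

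A further set of receptors, channels and enzymes showed the same separation of the sexes. Mchr1, the receptor for melanin-concentrating hormone, was at 1.09, 1.48 and 2.36 CPM in F and 2.46, 7.90 and 11.7 CPM in M. Kcnj3, a subunit of a G protein-gated potassium channel, was at 0, 0.530 and 1.10 CPM in F and 1.58, 3.27 and 4.97 CPM in M. Ryr2, the calcium release channel best known from heart, was at 0, 0.402 and 0.678 CPM in F and 1.38, 1.95 and 2.80 CPM in M. For these 3 genes the highest female library stayed below the lowest male library, and the log2 fold changes were 2.22 ± 0.30, 2.53 ± 0.39 and 2.38 ± 0.39 (adjusted p = 0.000204, 0.00107 and 0.00179). Tfcp2l1, a transcription factor of the grainyhead family, was at 1.34, 1.74 and 2.32 CPM in F and 3.97, 5.98 and 7.37 CPM in M. Mgst1, a membrane-bound glutathione S-transferase, was the most abundant of this set at 18.9, 22.2 and 32.2 CPM in F and 46.8, 64.1 and 91.0 CPM in M. Gadl1, a decarboxylase that makes beta-alanine, was at 0.524, 1.22 and 1.36 CPM in F and 2.13, 2.75 and 4.795 CPM in M. None of the 3 overlapped between the sexes, with log2 fold changes of 1.75 ± 0.16, 1.47 ± 0.13 and 1.47 ± 0.21 (adjusted p = 6.19e-07, 6.19e-07 and 0.000521). All 9 genes were called in each leave-one-out fit. The 12 males on CaAKG gave a further set of male levels: Slc15a5 was at 3.39 to 9.06 CPM, C7 at 5.34 to 36.7 CPM, Cds1 at 7.90 to 29.1 CPM and Mgst1 at 40.9 to 82.5 CPM, all above the highest control female.

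**Figure D1:**
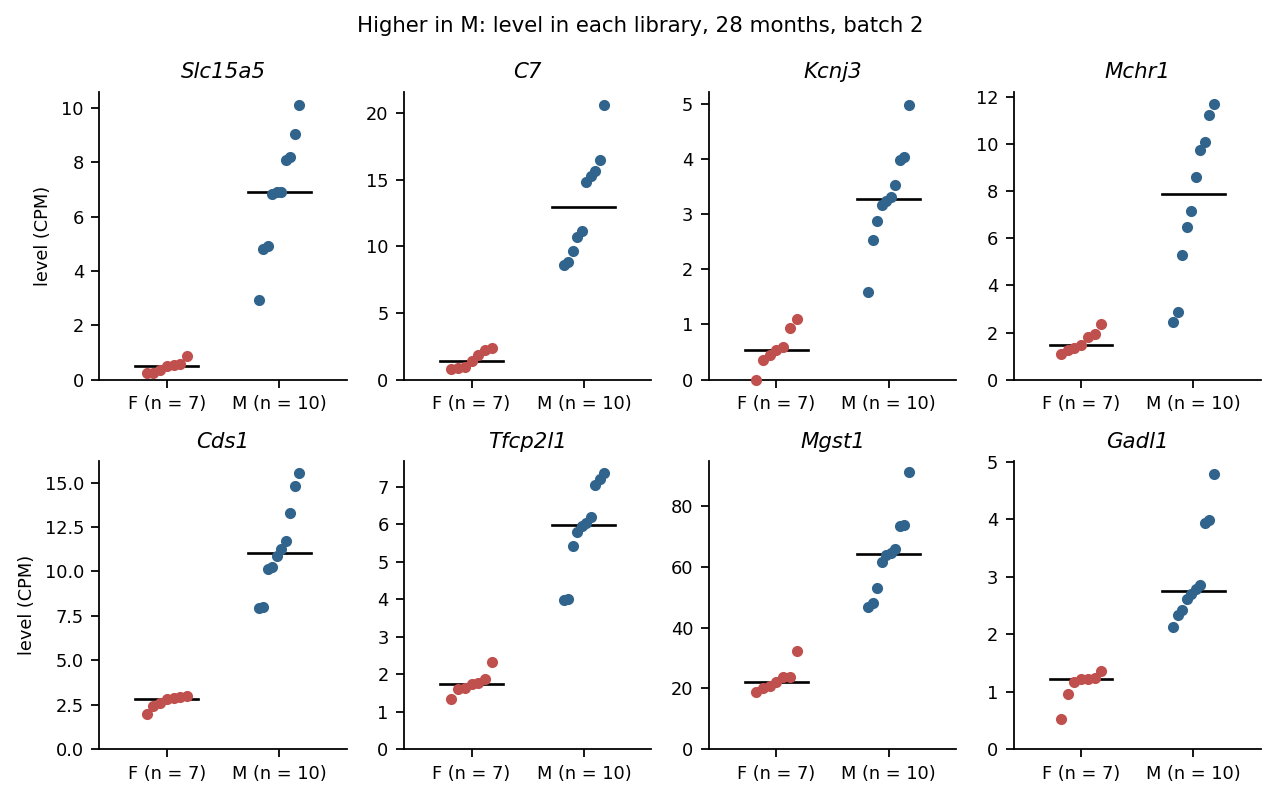
Level of 8 genes in each batch 2 control library of 28 months (vertical axes, CPM, each from 0), with F on the left (n = 7) and M on the right (n = 10). Points are libraries and bars are medians; in each panel the lowest M point, such as 2.92 CPM for Slc15a5, lies above the highest F point, 0.869 CPM for that gene.

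Other genes with large male-to-female ratios had overlapping ranges or lost their call without single libraries. Mstn, which encodes the muscle growth inhibitor myostatin, was at 0.0924, 0.640 and 1.04 CPM in F and 0.626, 1.74 and 6.94 CPM in M, so the ranges overlapped (2.17 ± 0.52, adjusted p = 0.0212, lost without F4, where lost means an adjusted p of 0.05 or more). Its highest values were M1 (6.38 CPM) and M2 (6.94 CPM), and the call was lost without M1 and M2 together. Cdhr3, a cadherin-related membrane protein, was at 0, 0.573 and 1.03 CPM in F and 0.629, 1.92 and 2.62 CPM in M (1.66 ± 0.41, adjusted p = 0.0268, lost without F1 or F4). Perp, a desmosome-associated p53 target, reached 45.7 CPM in M4, the library with skin transcripts. Its log2 fold change was 2.07 with that library and 1.05 without it (adjusted p = 0.0447 and 0.0214), and it was called in 5 of 17 leave-one-out fits.

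Upstream sequences of 3 of the male-high genes are shown because their groups were fully separated, together with that of Myog, which was higher in females. Each line gives the 250 bases before the first listed RefSeq transcription start, 5′ to 3′ on the gene's strand, in GRCm38.p6. The window of Slc15a5 is chr6:138079917-138080166 (minus strand), that of C7 chr15:5063774-5064023 (minus strand), that of Mchr1 chr15:81235249-81235498 (plus strand) and that of Myog chr1:134289754-134290003 (plus strand). Capitals mark AGAACA, the half-site shared by androgen and glucocorticoid receptor elements, and the E-box CANNTG bound by myogenic and other factors; both strands were searched, and no matches overlapped.
Slc15a5: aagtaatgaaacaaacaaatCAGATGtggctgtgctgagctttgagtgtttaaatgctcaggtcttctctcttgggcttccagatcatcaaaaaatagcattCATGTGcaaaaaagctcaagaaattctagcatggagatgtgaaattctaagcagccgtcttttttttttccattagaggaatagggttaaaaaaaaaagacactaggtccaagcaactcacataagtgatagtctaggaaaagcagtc
C7: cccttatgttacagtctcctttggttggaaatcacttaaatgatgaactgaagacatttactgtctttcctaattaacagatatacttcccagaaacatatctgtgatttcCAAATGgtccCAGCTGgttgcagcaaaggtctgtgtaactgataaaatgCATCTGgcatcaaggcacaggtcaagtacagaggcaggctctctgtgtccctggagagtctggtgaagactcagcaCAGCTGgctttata
Mchr1: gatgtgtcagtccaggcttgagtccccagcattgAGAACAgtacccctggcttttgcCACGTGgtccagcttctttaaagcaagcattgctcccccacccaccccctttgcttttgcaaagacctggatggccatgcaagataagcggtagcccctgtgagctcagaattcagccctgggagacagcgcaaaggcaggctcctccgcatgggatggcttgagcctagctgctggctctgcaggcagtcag
Myog: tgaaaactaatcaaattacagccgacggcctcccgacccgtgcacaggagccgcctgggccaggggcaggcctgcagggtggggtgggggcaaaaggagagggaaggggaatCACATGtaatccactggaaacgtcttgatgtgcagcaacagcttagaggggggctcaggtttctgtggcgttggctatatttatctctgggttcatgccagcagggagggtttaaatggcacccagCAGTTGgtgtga
AGAACA was found 1 time in the Mchr1 window and 0 times in the other windows. CANNTG was found 4 times in the C7 window, 2 times each in the Slc15a5 and Myog windows and 1 time in the Mchr1 window. Over all 32851 promoters in the table, 16.1% held AGAACA and 66.2% held CANNTG in a window of the same length. Among tested genes with a listed promoter, AGAACA was in 13.1% of 275 genes called higher in M, 12.8% of 242 called higher in F, and 10.6% of all 10699. CANNTG was in 61.8%, 63.6% and 57.5% of the same genes. These matches describe the letters alone.

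The genes highest in females over males included the myogenic regulators Myog, Myod1 and Mymk, the lipid gene Fasn and the receptor gene Cx3cr1. Myog, the transcription factor myogenin that drives myoblast differentiation (chr1:134289989-134292548, plus strand), was at 7.05, 15.7 and 65.2 CPM in F and 3.72, 5.88 and 22.8 CPM in M. Myod1, which acts before it, was at 9.21, 29.4 and 50.4 CPM in F and 3.88, 11.0 and 20.7 CPM in M. Mymk, the membrane protein myomaker needed for myoblast fusion, was at 0.0502, 1.02 and 8.58 CPM in F and 0.0444, 0.146 and 0.995 CPM in M. The ranges of all 3 overlapped, with a log2 fold change of -1.80 ± 0.44 for Myog, -1.33 ± 0.33 for Myod1 and -2.87 ± 0.78 for Mymk (adjusted p = 0.0235, 0.0268 and 0.0389). Without F1 or F4 none of these 3 calls remained, Myod1 was also lost without F7, and Mymk was called in 7 of 17 leave-one-out fits. Hes1, a Notch target that represses differentiation of satellite cells, was at 25.7, 29.9 and 36.0 CPM in F and 11.2, 15.8 and 25.2 CPM in M, with no overlap and a call in all 17 leave-one-out fits (-0.78 ± 0.13, adjusted p = 0.00179). Of 20 satellite cell and myogenic genes these 4 were called, all higher in F, against 4.68% of all autosomal genes tested. The median of the list was -0.26, against 0.00 over all autosomal genes tested. The count of called members was 1 without F1 or F4, 2 with all 11 groups in the fit and 2 with the fast-fibre covariate.

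Several lipid genes were higher in F and were uneven among the female mice. Fasn, the fatty acid synthase, was at 16.01, 33.9 and 376 CPM in F and 10.3, 15.7 and 26.4 CPM in M, the highest value being F7 (-2.27 ± 0.52, adjusted p = 0.0171). Scd1, the desaturase that makes oleate, was at 89.5, 154 and 765 CPM in F and 43.0, 74.9 and 135 CPM in M (-1.56 ± 0.36, adjusted p = 0.0198). Adrb3, the beta-3 adrenergic receptor of fat cells, was at 0.240, 0.955 and 6.50 CPM in F and 0.0233, 0.231 and 1.09 CPM in M (-2.48 ± 0.65, adjusted p = 0.0335, called in 11 of 17 leave-one-out fits). Each of the 3 overlapped between the sexes. Fasn and Scd1 were called in each leave-one-out fit. Of 22 adipocyte markers 3 were called higher in F and 1 higher in M, against 4.68% of all autosomal genes tested in either direction. Their median was -0.65, and -0.33 with DESeq2. Leaving out a library gave medians from -0.77 to -0.13 and 2 to 5 calls. The median was -0.13 without F7, and 2 were called without F1, M8 or M10. The call higher in M was lost without M4, among others. With the fast-fibre list mean as a covariate 0 were called. In the mice of 20 months the median of this list was 0.39, with 1 call higher in M and 0 higher in F. The summed level of the adipocyte markers was 4022 to 8065 CPM in F and 3078 to 5204 CPM in M.

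Several surface and secreted molecules were also higher in F. Cx3cr1, the fractalkine receptor of monocytes and macrophages, was at 0.154, 2.29 and 3.29 CPM in F and 0.0991, 0.465 and 0.883 CPM in M. Fcrls, an Fc receptor-like molecule of macrophages, was at 1.38, 2.03 and 6.66 CPM in F and 0.304, 0.920 and 1.44 CPM in M. Their log2 fold changes were -1.93 ± 0.42 and -1.76 ± 0.35 (adjusted p = 0.0140 and 0.00754), both called in all 17 leave-one-out fits, although F7 was the lowest female for Cx3cr1 at 0.154 CPM. Spon1, a secreted matrix protein, was at 2.43, 3.33 and 11.9 CPM in F and 1.18, 1.86 and 2.38 CPM in M, without overlap (-1.51 ± 0.27, adjusted p = 0.00343). C1rl, a complement C1r-like protease, was at 0.573, 0.944 and 4.50 CPM in F and 0.237, 0.473 and 0.694 CPM in M. The pentraxin Ptx4 was at 2.12, 2.50 and 5.95 CPM in F and 0.694, 1.11 and 2.77 CPM in M (log2 fold changes of the pair -1.62 ± 0.38 and -1.45 ± 0.29, adjusted p = 0.0200 and 0.00751). The remaining genes with large female-to-male ratios were Plekhh1 (-1.69), the potassium channel auxiliary subunit Lrrc55 (-1.69), the cytochrome P450 Cyp2f2 (-1.68) and the cysteine dioxygenase Cdo1 (-1.45), all on the log2 scale. Their calls were lost without F1 or F4 for Plekhh1, without F4, F5 or M3 for Lrrc55, and without F7 for Cyp2f2 and Cdo1.

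**Figure D2:**
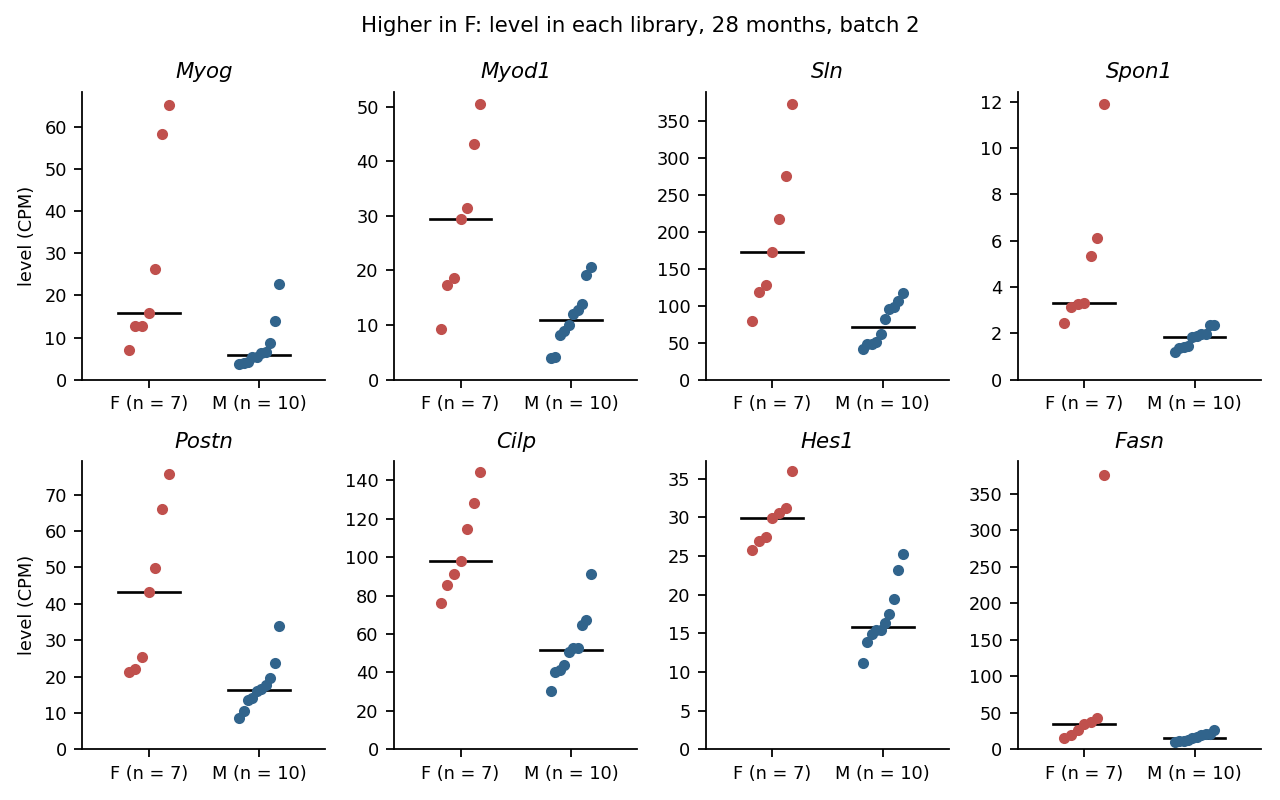
Level of 8 genes in each batch 2 control library of 28 months (vertical axes, CPM, each from 0), F on the left (n = 7) and M on the right (n = 10), with bars at medians. Spon1 and Hes1 do not overlap between the sexes, while Fasn is spread by F7 at 376 CPM.

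The myosin heavy chains gave the sexes different shares of fibre transcripts. Per transcript length, Myh7 made up 54.2%, 63.2% and 76.0% (lowest, median and highest) of the 4 adult heavy chains in F and 37.9%, 44.3% and 50.8% in M. The highest male share was below the lowest female one, and the means were 62.9% ± 7.21 (SD, n = 7) and 44.4% ± 4.31 (SD, n = 10), a difference of -18.5 percentage points (exact permutation test, two-sided p = 0.000103, the smallest it can give). This share of Myh7 was added after the shares had been seen. The fast share, Myh1 plus Myh4, was 8.42% ± 4.11 (SD, n = 7) in F and 18.8% ± 6.52 (SD, n = 10) in M, with overlapping ranges of 3.84% to 14.8% and 7.21% to 28.9% (difference 10.3 points, exact permutation test, two-sided p = 0.00257). As levels, Myh7 was at 11795, 12414 and 17979.5 CPM in F and 6290.2, 9951 and 11679.7 CPM in M without overlap (-0.50 ± 0.12 on the log2 scale, adjusted p = 0.0198, lost without F6). Myh4 was at 18.9, 51.96 and 123.7 CPM in F and 24.0, 381 and 3918 CPM in M, the highest values being M1 and M2, and its log2 fold change of 3.89 ± 1.03 (adjusted p = 0.0358) was called in 8 of 17 leave-one-out fits. Myh1 (0.79 ± 0.30) and Myh2 (0.38 ± 0.17) did not pass the test (adjusted p = 0.139 and 0.199). The heavy chain genes are similar in sequence, and how the deposited estimates split shared reads among them was not tested.

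**Figure D3:**
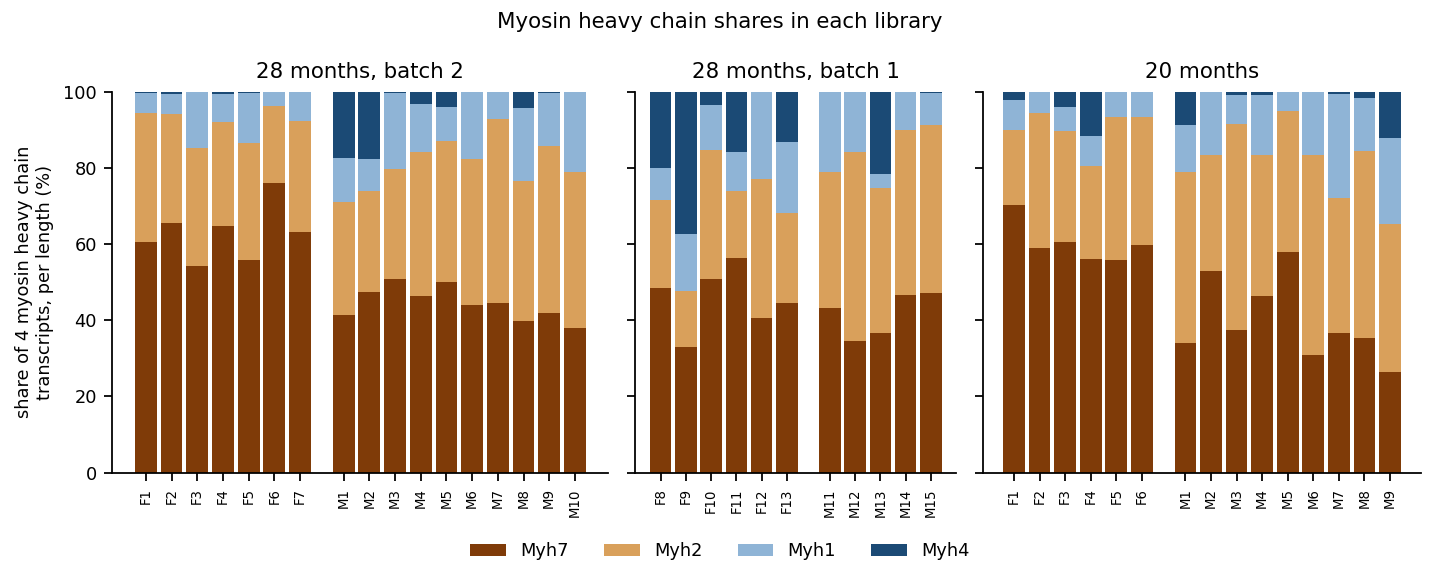
Share of Myh7, Myh2, Myh1 and Myh4 among the 4 heavy chains, per transcript length (vertical axis, percent), in each control library of 28 months in batch 2, 28 months in batch 1 and 20 months in batch 1; each bar is a library. In batch 2 all M bars hold 50.8% Myh7 or less and all F bars 54.2% or more. M1 and M2 hold the largest Myh4 shares of that batch.

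Other sarcomere genes were called in opposite directions by fibre type. Of 18 fast-fibre genes 8 were called, all higher in M, with a median log2 fold change of 0.53. With all 11 groups in the fit 4 were called. For this list and the slow-fibre list, the share called over all autosomal genes tested was 4.68%. The fast troponins were the clearest. Tnnt3 was at 2346, 3291 and 4808 CPM in F and 5003, 5962 and 7558 CPM in M. Tnni2 was at 867, 1399 and 1970.0 CPM in F and 1903, 2389 and 3338 CPM in M. Tnnc2 was at 1237, 1748 and 2389.9 CPM in F and 2389, 2831 and 3884 CPM in M. Their log2 fold changes were 0.80 ± 0.13, 0.86 ± 0.14 and 0.73 ± 0.12 (adjusted p = 0.00118, 0.00174 and 0.00179), called in each leave-one-out fit, and Tnnt3 did not overlap between the sexes. Ampd1, the AMP deaminase of muscle, was at 189, 219 and 245 CPM in F and 228, 292 and 341 CPM in M (0.40 ± 0.08, adjusted p = 0.0112). Mybpc2, the fast myosin-binding protein C, differed most after Myh4 (3.46 ± 0.86, adjusted p = 0.0259, lost without F1, F4 or F6), with overlapping levels of 2.37, 6.14 and 47.2 CPM in F and 10.4, 114 and 673 CPM in M. Of 15 slow-fibre genes 7 were called, all higher in F, with a median of -0.31. With all 11 groups of the series in the fit 1 of them was called (median -0.29), and with the fast-fibre mean as a covariate 1 (median -0.10). Sln, the sarcolipin that inhibits the calcium pump, was at 79.0, 173 and 373 CPM in F and 41.5, 71.9 and 118 CPM in M (-1.37 ± 0.27, adjusted p = 0.00754). Tpm3, the slow tropomyosin, was at 4523, 5194 and 5916 CPM in F and 3666, 4029 and 4475 CPM in M without overlap (-0.37 ± 0.07, adjusted p = 0.00383). The slow troponins Tnnt1 (-0.31 ± 0.07) and Tnni1 (-0.39 ± 0.09) differed by less (adjusted p = 0.0139 and 0.0180). The fast-fibre count was 4 without M1 and M2 together, 4 without F4 and 5 without F1 or F6, and the slow-fibre count was 4 without F6. With the fast-fibre list mean as a covariate, 89 genes of the whole table were called and Myh4 turned to -0.67. Myh4 and the other fast-fibre genes are part of that mean, and the called ones were all higher in M. That fit therefore cannot judge the members of the list on their own.

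The genes of mitochondrial fuel use that were called were all higher in M, each by a small amount. Of 28 genes of fatty acid uptake and oxidation 11 were called, all higher in M, with a median of 0.29. The share called over all autosomal genes tested was 4.68%. Hadh, an enzyme of beta-oxidation, was at 162, 215 and 239 CPM in F and 269.6, 304 and 343 CPM in M without overlap (0.58 ± 0.08, adjusted p = 0.000176). Slc25a20, the carnitine carrier of the inner membrane, was at 85.2, 104 and 129 CPM in F and 124.8, 141 and 158 CPM in M (0.42 ± 0.08, adjusted p = 0.00393). Acadm, which starts the oxidation of medium-chain fatty acids, was at 399, 523 and 691 CPM in F and 592, 727 and 843 CPM in M (0.48 ± 0.10, adjusted p = 0.00770). Decr1, which handles unsaturated fatty acids, differed by 0.42 ± 0.09 (adjusted p = 0.0112). The count for this list was 8 to 16 whichever library was left out, 2 after correction for transcript length and GC content, 7 with all 11 groups in the fit and 3 with the fast-fibre covariate.

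The lists of this paragraph stand against 4.68% of all autosomal genes tested called in either direction. Of 19 tricarboxylic acid cycle genes 6 were called higher in M and none higher in F (median 0.23). Of 53 nuclear-encoded subunits of oxidative phosphorylation 11 were called higher in M and none higher in F (median 0.27). Pdhx, a pyruvate dehydrogenase subunit, was at 52.1, 69.1 and 76.3 CPM in F and 75.4, 87.2 and 98.4 CPM in M (0.35 ± 0.07, adjusted p = 0.0126). Idh3a, an isocitrate dehydrogenase subunit, was at 288, 346 and 407 CPM in F and 392, 421 and 518 CPM in M (0.34 ± 0.08, adjusted p = 0.0221, lost without F1 or F6). Atp5g3, a subunit of the ATP synthase, was at 456, 490.1 and 574 CPM in F and 546, 624.9 and 726 CPM in M (0.34 ± 0.07, adjusted p = 0.0140). Ndufb3, a subunit of complex I, was also called (0.32 ± 0.08, adjusted p = 0.0216, lost without F1 or F6). All 53 fitted differences of the oxidative phosphorylation list lay above 0, between 0.03 and 0.41. This was not particular to that list: of 48 ribosomal protein genes 47 lay above 0 and 1 below (median 0.18). With length and GC offsets the medians were 0.14 for oxidative phosphorylation and 0.06 for ribosomal proteins. The oxidative phosphorylation count was unstable: it ran from 1 (without F1 or F6) to 25 (without F3). It moved by over 1.5 times when any library but M2 or M6 was left out. It was 0 with length and GC offsets and 0 with all 11 groups of the series in the fit. The tricarboxylic acid count was 2 without F1 or F6, 1 with the offsets, 1 with all 11 groups in the fit and 0 with the fast-fibre covariate. Transcripts called higher in M had a median length of 2625 bases, those higher in F 3633 and all tested genes 3267. The share of counts from the mitochondrial genome is given above. The part of either in these counts was not tested further. Of 20 glycolysis and glycogen genes 3 were called higher in M, the most significant being Tpi1, triosephosphate isomerase (0.30 ± 0.08, adjusted p = 0.0343, called in 9 of 17 leave-one-out fits). In 10 of 17 leave-one-out fits that count moved beyond 1.5 times. It was 0 without F1, F4, F6, M2, M8, M9 or M10, 1 without M1 or M6, and 6 without F3.

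Of the lists described, matrix genes held the most calls higher in F. Of 28 fibroblast, collagen and matrix genes 14 were called, all higher in F, against 4.68% of all autosomal genes tested in either direction, and the median was -0.62. With all 11 groups of the series in the fit 2 were called (median -0.60), and with the fast-fibre mean as a covariate 0 (median -0.52). Postn, the matrix protein periostin, was at 21.1, 43.3 and 75.8 CPM in F and 8.56, 16.3 and 33.8 CPM in M (-1.31 ± 0.27, adjusted p = 0.0100). Col4a1, a collagen of the basement membrane, was at 91.5, 117 and 149 CPM in F and 47.9, 67.3 and 112 CPM in M (-0.74 ± 0.14, adjusted p = 0.00526). Col15a1, also of the basement membrane zone, was at 20.9, 27.3 and 37.3 CPM in F and 11.2, 14.4 and 24.6 CPM in M (-0.81 ± 0.17, adjusted p = 0.0104). Loxl1, which crosslinks elastin, was at 20.3, 27.3 and 37.0 CPM in F and 13.8, 17.8 and 20.4 CPM in M (-0.57 ± 0.11, adjusted p = 0.00612). Most females lay above most males for these 4 genes, with overlap in each. The count was 10 without M4, 8 without F1, 9 without F4, and 8 without M1 and M2 together. Of 12 tendon and cartilage-like markers 3 were called, all higher in F (median -0.48; 5 without M5 and 2 without M4). Cilp, a cartilage matrix protein, was at 76.2, 98.0 and 144 CPM in F and 30.3, 51.7 and 91.5 CPM in M (-0.97 ± 0.17, adjusted p = 0.00344). Thbs4, a thrombospondin of tendon, was at 112.5, 159 and 231 CPM in F and 42.2, 76.6 and 181 CPM in M (-0.96 ± 0.21, adjusted p = 0.0152). Comp, a matrix protein of cartilage and tendon, was at 26.5, 43.1 and 59.6 CPM in F and 11.9, 21.2 and 48.3 CPM in M (-0.86 ± 0.23, adjusted p = 0.0338, called in 7 of 17 leave-one-out fits). The summed level of the fibroblast and matrix list was 1554 to 2627 CPM in F and 1061 to 2097 CPM in M. That of the tendon list was 448 to 803 CPM in F and 215 to 735 CPM in M. How much tendon or connective tissue each sample held was not measured.

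Markers of other cell types held 0 calls in 4 lists of 13 to 17 tested members. At the share of all autosomal genes called (4.68%), a list of this size would hold less than 1, so the count of 0 is near the background. None of 17 endothelial, 13 smooth muscle and pericyte, 13 Schwann cell or 14 macrophage markers tested passed, with medians of -0.23, -0.09, 0.26 and -0.32. The Schwann cell median was -0.04 without M1, where the myelin gene Mbp was at 259 CPM, and the smooth muscle median was 0.01 without F7. The values nearest to a call were those of Eng in endothelium (-0.38 ± 0.12, adjusted p = 0.0730), Cspg4 in pericytes (-0.44 ± 0.18, adjusted p = 0.167), Cldn19 in myelinating cells (0.62 ± 0.42, adjusted p = 0.419) and Adgre1 in macrophages (-0.78 ± 0.25, adjusted p = 0.0765). Only 3 of 14 neutrophil, 5 of 13 B and plasma cell, 1 of 14 T and NK cell and 3 of 14 keratinocyte markers had enough counts to be tested. The single call among them was Xbp1, which B cells share with other secretory cells. Krt10, an epidermal keratin, was at 0.647, 1.94 and 2.86 CPM in F and 1.54, 1.89 and 181 CPM in M, the highest value being M4. Its log2 fold change was 3.35 with that library and -0.01 without it (adjusted p = 0.0968 and 0.992).

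**Figure D4:**
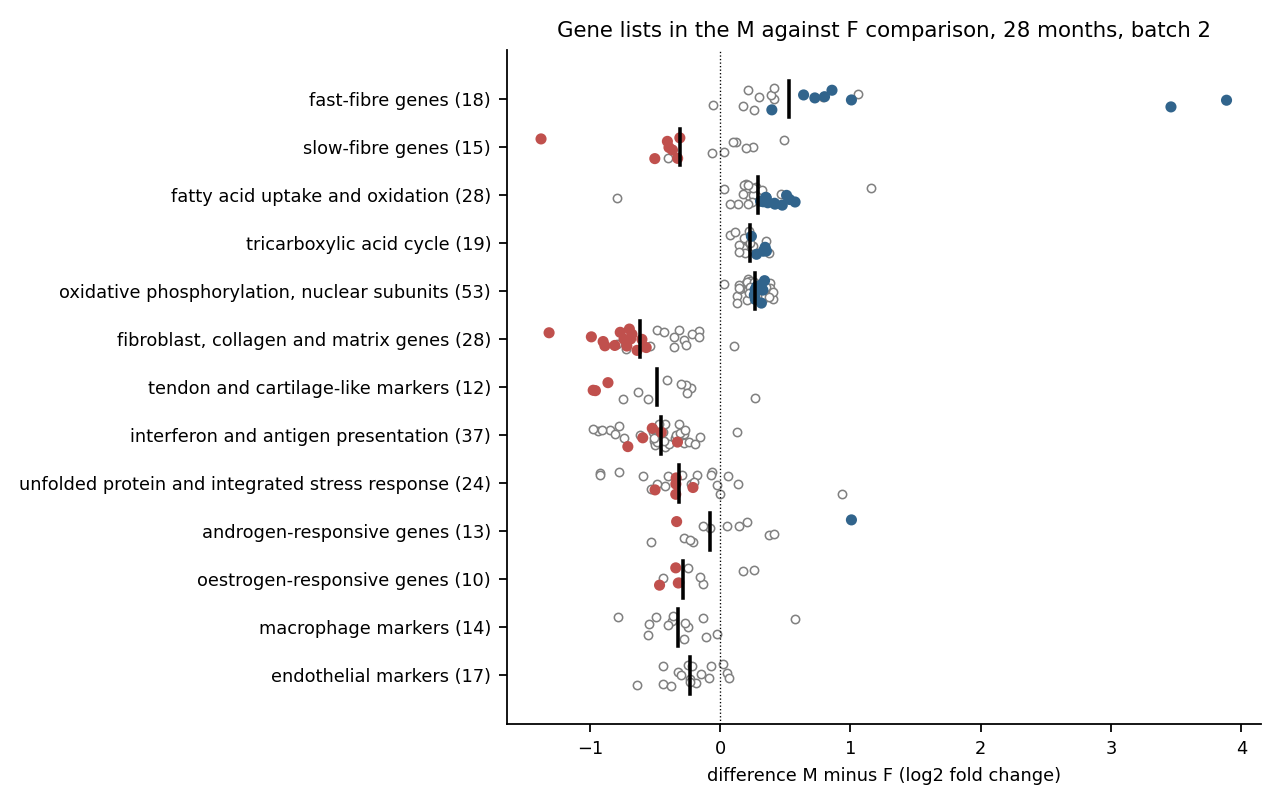
Difference M minus F (horizontal axis, log2 fold change) of the members of 13 gene lists, with the number tested in parentheses. Filled points passed the test (blue higher in M, red higher in F), open points did not, and black bars are list medians. Fast-fibre genes and the 3 lists of fuel oxidation lie mostly to the right of 0, and matrix, tendon, interferon and protein-folding genes mostly to the left.

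Genes linked to sex hormones were called in 2 of 13, 3 of 10 and 1 of 18 cases in the lists of androgen-responsive genes, oestrogen-responsive genes, and steroid receptors and enzymes, against 4.68% of all autosomal genes tested. With all 11 groups of the series in the fit 0 members of each of these lists were called. Of 13 androgen-responsive genes tested 1 was called in each direction. Mylk4, a myosin light chain kinase of muscle that is also in the fast-fibre list, was at 22.1, 32.2 and 66.96 CPM in F and 27.9, 65.9 and 152 CPM in M (1.01 ± 0.26, adjusted p = 0.0339, called in 9 of 17 leave-one-out fits). Its highest values were M1 (96.3 CPM) and M2 (152 CPM), and it was not called without M1 and M2 together. Pmepa1, a regulator of TGF-beta signalling, was at 24.6, 29.7 and 38.2 CPM in F and 19.1, 24.5 and 27.9 CPM in M (-0.33 ± 0.09, adjusted p = 0.0338, called in 10 of 17 leave-one-out fits). The median of that list was -0.08. Of 10 oestrogen-responsive genes 3 were called, all higher in F: cyclin D1 (Ccnd1, -0.46 ± 0.12, adjusted p = 0.0290, lost without F1, F4, F6 or M9), the lysosomal protease cathepsin D (Ctsd, -0.32 ± 0.08, adjusted p = 0.0330, called in 10 of 17 leave-one-out fits) and Xbp1. This count was 0 to 4 when a library was left out, being 0 without F1, F4 or M9, and 1 without F6, F7, M3, M8 or M10. Among 18 steroid receptors and steroid-metabolising enzymes only Esr1, the oestrogen receptor alpha, was called, at 12.2, 13.0 and 14.2 CPM in F and 9.05, 10.8 and 12.1 CPM in M without overlap (-0.31 ± 0.07, adjusted p = 0.0200, lost without F4). Hsd11b1, which reactivates glucocorticoids, was at 3.39, 6.78 and 8.24 CPM in F and 7.15, 8.79 and 10.9 CPM in M and did not pass (0.41 ± 0.14, adjusted p = 0.0982).

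Other hormone pathways held 0 to 3 calls each, against 4.68% of all autosomal genes tested. None of 15 genes of growth hormone, STAT5 and SOCS signalling and none of 12 polyamine genes passed. For lists of this size a count of 0 is near that share. Stat5a (-0.42 ± 0.15, adjusted p = 0.109) and the polyamine enzyme Smox (0.42 ± 0.19, adjusted p = 0.218) were among the nearest. Of 24 insulin and IGF signalling genes 3 were called. That count was 0 with all 11 groups in the fit, 0 with length and GC offsets and 0 with the fast-fibre covariate. Grb14, an adaptor that inhibits the insulin receptor, was at 21.6, 29.4 and 34.2 CPM in F and 30.5, 39.8 and 59.4 CPM in M and higher in M (0.56 ± 0.13, adjusted p = 0.0224). The related adaptor Grb10 was at 89.4, 99.5 and 121 CPM in F and 56.7, 79.4 and 93.2 CPM in M and higher in F (-0.38 ± 0.09, adjusted p = 0.0212, lost without F4). Akt1, the kinase downstream of the receptor, was at 99.5, 109 and 123.9 CPM in F and 77.99, 89.6 and 106 CPM in M and higher in F (-0.31 ± 0.07, adjusted p = 0.0209, lost without F4). Of 14 glucocorticoid-responsive genes 2 were higher in M, and 0 were called with all 11 groups in the fit. Sgk1, a kinase that regulates ion transport, was at 31.8, 36.3 and 59.3 CPM in F and 46.3, 64.9 and 78.1 CPM in M (0.63 ± 0.14, adjusted p = 0.0124). The other was the clock gene Per1 (0.91 ± 0.25, adjusted p = 0.0424, called in 5 of 17 leave-one-out fits). Of 11 thyroid hormone genes the receptor Thra was higher in M (0.33 ± 0.08, adjusted p = 0.0214, lost without F1 or F4). The activating deiodinase Dio2 did not pass (-0.82 ± 0.25, adjusted p = 0.0603).

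Most calls in the stress, immune and growth factor lists were higher in F. These 5 lists held 3 to 5 calls each, at 13.5% to 20.8% of the members tested, against 4.68% of all autosomal genes tested. Of 24 genes of the unfolded protein and integrated stress response 5 were called, all higher in F (median -0.31). Leaving out a library gave 2 to 5 calls, over 1.5 times fewer without F1, F4, F6, F7, M3, M6, M7, M8, M9 or M10. Calr, the endoplasmic reticulum chaperone calreticulin, was at 144, 158 and 168 CPM in F and 109, 123.1 and 146 CPM in M (-0.34 ± 0.06, adjusted p = 0.00533). Atf5, a stress-induced transcription factor, was at 123.96, 177 and 208 CPM in F and 94.8, 126 and 154 CPM in M (-0.50 ± 0.10, adjusted p = 0.00801). Xbp1, the transcription factor of the same pathway, differed by -0.34 ± 0.10 (adjusted p = 0.0449, called in 5 of 17 leave-one-out fits). Of 37 interferon and antigen presentation genes 5 were called, all higher in F. Among them the antiviral Rsad2 was at 7.30, 10.4 and 11.4 CPM in F and 4.46, 6.37 and 8.41 CPM in M (-0.59 ± 0.14, adjusted p = 0.0175). B2m, the light chain of MHC class I, was at 109.6, 121 and 151 CPM in F and 71.5, 83.2 and 145 CPM in M (-0.45 ± 0.13, adjusted p = 0.0430, called in 5 of 17 leave-one-out fits). The median was -0.45 and 36 of the 37 fitted differences were below 0. The count ran from 1, without M4 among others, to 14, without M7, was 0 with all 11 groups in the fit, and moved by over 1.5 times when any library but F1 was left out. Of 24 antioxidant genes 4 were called higher in F and 1 higher in M. The glutathione S-transferase Gstm2 was at 33.3, 39.7 and 60.0 CPM in F and 23.2, 28.4 and 36.2 CPM in M (-0.52 ± 0.11, adjusted p = 0.0106). The carboxylesterase Ces1d was also higher in F (-1.41 ± 0.29, adjusted p = 0.00923). The call higher in M was the mitochondrial superoxide dismutase Sod2, at 216, 264 and 287 CPM in F and 282, 317 and 372 CPM in M (0.30 ± 0.07, adjusted p = 0.0235, lost without F1 or F4). Gstm2 has near-identical relatives, so its level is uncertain. Of 19 complement genes C7 was higher in M and Clu (-0.51 ± 0.12, adjusted p = 0.0214) and Cfb (-0.79 ± 0.22, adjusted p = 0.0460, called in 6 of 17 leave-one-out fits) higher in F. Of 18 myokines and growth factors Mstn was higher in M, and Fgf2 and Inhba were higher in F. Without M1 and M2 together Mstn was not called. Fgf2, a fibroblast growth factor, was at 26.2, 33.2 and 35.2 CPM in F and 18.1, 24.7 and 27.4 CPM in M (-0.45 ± 0.09, adjusted p = 0.00941). Inhba, an activin subunit, was at 2.51, 4.69 and 5.55 CPM in F and 1.54, 2.35 and 3.52 CPM in M (-0.85 ± 0.19, adjusted p = 0.0156).

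Separate mice of 20 months showed many of the same differences. There 414 of 14704 autosomal genes (2.82%) were called, 222 higher in M and 192 higher in F. Of the 680 genes called in batch 2 that could be tested there, 613 (90.1%) had the same sign, against 61.9% of all 14395 genes tested in both. Called at both ages in the same direction were 156 genes, which is 22.9% of the 682 and 37.7% of the 414, and 0 were called in opposite directions. Among these were C7 (3.14), Kcnj3 (2.64), Mchr1 (2.63), Cds1 (1.97) and Ryr2 (1.92) on the male side, and Spon1 (-1.69), Ptx4 (-1.04), Myog (-0.89) and Postn (-0.85) on the female side, as log2 fold changes at 20 months. Their adjusted p at 20 months ran, in that order, 4.97e-07, 2.23e-07, 1.45e-06, 3.39e-07, 0.00157, 9.11e-05, 0.00255, 0.00840 and 0.0166 (edgeR). Other values went the other way without passing the test there: Fasn was at 1.09 and Scd1 at 0.85 at 20 months (adjusted p = 0.0620 and 0.235). By list, 8 slow-fibre genes were called higher in F and 1 higher in M at 20 months (median -0.59), 7 tendon markers higher in F (median -0.59), 3 matrix genes higher in F (median -0.24), and 1 oxidative phosphorylation gene higher in M (median 0.14). The Myh7 share at 20 months was 60.3% ± 5.30 (SD, n = 6) in F and 39.8% ± 10.5 (SD, n = 9) in M (difference -20.5 points, exact permutation test, two-sided p = 0.0012). The fast share was 9.79% ± 5.10 (SD, n = 6) in F and 18.1% ± 9.09 (SD, n = 9) in M there and did not pass (difference 8.28 points, exact permutation test, two-sided p = 0.0504).

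In the batch 1 mice of 28 months 14 of 14465 autosomal genes (0.0968%) were called, 10 higher in M and 4 higher in F, and 1933 had an unadjusted p under 0.05. Of 678 genes called in batch 2 and tested there, 591 (87.2%) had the same sign, against 63.5% of 14213. The batches differed in direction for the fast myosins. In batch 1 the fast share was 29.4% ± 12.5 (SD, n = 6) in F and 16.1% ± 7.05 (SD, n = 5) in M (difference -13.3 points, exact permutation test, two-sided p = 0.039). The Myh7 share differed by -4.00 points (p = 0.377 by the same exact test). The batch 1 log2 fold changes of Myh4 and Mybpc2 were -1.96 and -2.16 (adjusted p = 0.661 and 0.541), and the matrix list had a median of 0.04 there. The fast-fibre median was -0.20 and the slow-fibre median 0.02. Medians with the sign of batch 2 were 0.33 for oxidative phosphorylation, 0.35 for the tricarboxylic acid cycle, 0.47 for fatty acid genes and -1.11 for interferon genes. In batch 1, 0 members of each of these lists were called. The edgeR test of the difference between batches called 0 of 15586 autosomal genes (0.0%), with 1369 at an unadjusted p under 0.05. DESeq2 called 60 and limma-voom 1, and edgeR called 4 without the libraries of skin or marrow transcripts. A difference between the batches is thus not shown for single genes in that fit, and the small number of batch 1 calls does not show that the sexes were alike there.

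Of the genes called in batch 2, 10 were called in all 3 comparisons, and they were singled out after their values had been seen. Slc15a5 was at 0.298, 0.544 and 1.14 CPM in F and 4.65, 6.46 and 8.26 CPM in M at 20 months. In batch 1 it was at 0.165, 0.648 and 1.21 CPM in F and 4.30, 4.68 and 7.45 CPM in M, with log2 fold changes of 3.42 ± 0.22 at 20 months and 3.02 ± 0.43 in batch 1. Mgst1 was at 20.5, 23.4 and 28.4 CPM in F and 54.1, 72.5 and 91.7 CPM in M at 20 months. Its batch 1 levels were 18.02, 27.97 and 41.5 CPM in F and 59.9, 73.8 and 89.8 CPM in M (1.63 ± 0.11 and 1.38 ± 0.19). In these 4 sets of values no female library reached the lowest male library. Prss23, a secreted serine protease, was at 30.8, 37.9 and 44.7 CPM in F and 49.5, 59.7 and 77.2 CPM in M in batch 2, without overlap (0.64 ± 0.09, adjusted p = 0.000323). Actr3b, a relative of the actin-nucleating Arp3, was at 5.61, 7.03 and 8.41 CPM in F and 10.5, 12.8 and 17.1 CPM in M, also without overlap (0.89 ± 0.11, adjusted p = 0.000130). Prkd1, protein kinase D1, was at 5.08, 5.87 and 10.8 CPM in F and 8.76, 11.5 and 14.4 CPM in M (0.70 ± 0.16, adjusted p = 0.0150). Also higher in M in all 3 were Prune2 (0.85, 1.18 and 1.16 on the log2 scale in batch 2, at 20 months and in batch 1), Ccdc85a (0.61, 0.49 and 1.10), the matrix protein nephronectin Npnt (0.61, 0.64 and 1.04, lost in batch 2 without F4 or F5) and the centrosome-associated Ssx2ip (0.59, 0.74 and 0.92). Dnase2a, the lysosomal DNase II, was higher in F in all 3, at 9.03, 14.4 and 16.3 CPM in F and 6.42, 7.51 and 11.0 CPM in M in batch 2 (-0.78 ± 0.13, adjusted p = 0.00132), -0.62 ± 0.10 at 20 months and -1.09 ± 0.12 in batch 1.

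**Figure D5:**
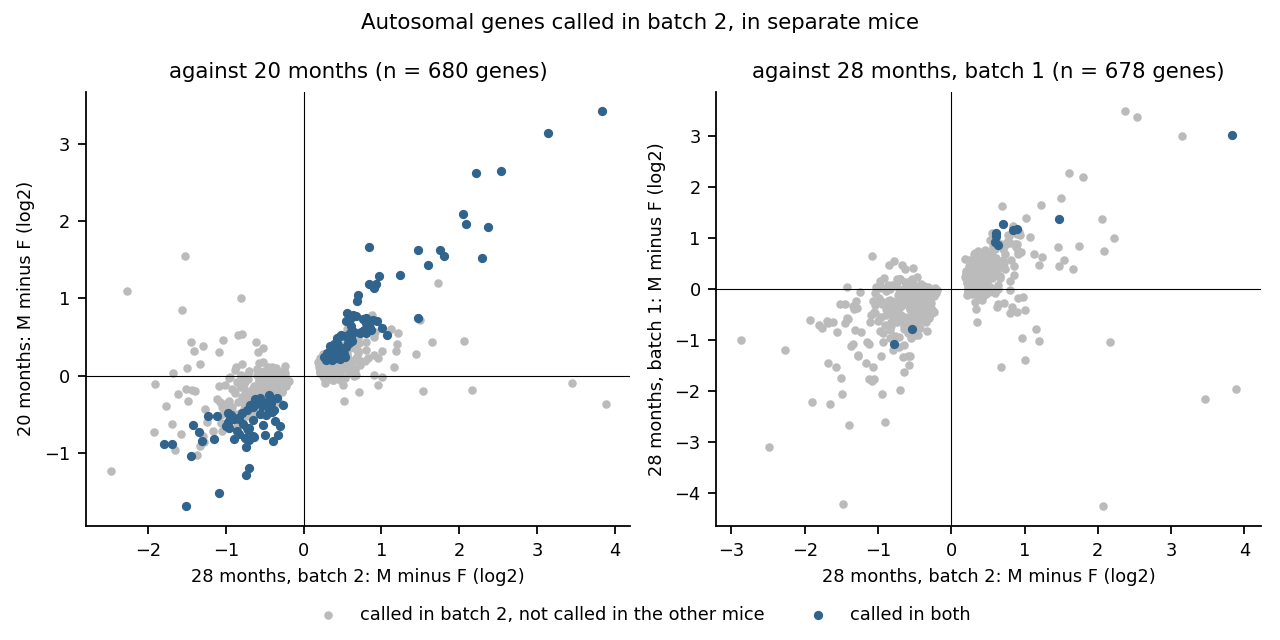
Difference M minus F (log2 fold change) of the genes called in batch 2 at 28 months (horizontal axes) against the difference in separate mice (vertical axes): 680 genes at 20 months on the left and 678 in batch 1 at 28 months on the right; each point is a gene, and blue points passed the test in both. The 156 blue points on the left all lie in the quadrants of equal sign. In the batch 1 panel, Myh4 and Mybpc2 lie at large positive horizontal values and below 0 on the vertical axis.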

How the data were processed

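The submitters' processing notes name FastQC, STAR 2.7.11b, RSEM 1.3.3 and mm10. Annotation, strand setting and any filter: not given in the sources used here. What the authors deposited is a single table of RSEM expected counts for 36904 gene IDs, of which 8.99% of values were not whole (tolerance 1e-06); they were rounded. RSEM splits reads of similar genes by estimate. A further 55 columns match no label and were not used. Symbols and positions came from GENCODE M21 for 35338 IDs; the 1566 without held 0.881% of counts. Promoters came from RefSeq.

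The label M28 was read as 28 months. P-values measure the spread between libraries labelled as separate mice. Among 136 pairs of the 17 libraries the lowest chi-square per gene was 15.5, far above sampling noise, and none was merged.

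After filterByExpr (minimum count 10, total 15), 15359 genes, 14576 of them autosomal, entered edgeR 4.0.16 quasi-likelihood tests (R 4.3.3) with TMM factors. Each comparison was fitted on its own 2 groups, and the batch interaction on the 4 control groups of 28 months. The batch 2 groups were fitted alone because some libraries of other groups are known to go against their sex label. Such libraries widen the shared estimate of the spread for genes that differ by sex. The part of this in the lower counts with all 11 groups in the fit was not tested. Printed CPM share one TMM scale over all libraries, while marker sums and the label check use library totals. Myosin shares were tested with scipy 1.17.1. Simulated counts recovered 55.2%, 68.7% and 86.4% of genes changed 1.5-, 2- and 4-fold in the batch 2 comparison (15359 genes), with 7.89% of calls false.

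The comparison, its members and the gene lists were chosen with earlier results of these data known. Genes were named by rule: the 14 largest differences each way among genes called with and without M4 that averaged 1 CPM or more in the sex with more (no number-only, immunoglobulin, T cell receptor or pseudogene symbols), and up to 4 members of smallest p of each list described; some of the latter are given only in their list's counts, and one gene that the rule named is not reported here. Lists were described if of hormones, fibres and energy or cell types, or with at least 3 calls. DESeq2 1.42.0 and limma-voom 3.58.1 were alternatives, with RLE factors, other filters, groups and covariates, and length and GC offsets (splines of 5 degrees of freedom).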

Additional observations from a re-analysis of the deposited data

Results flagged for a closer look

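Among 89 named genes, each sex was searched for a library whose log2 level (of CPM plus 0.1) lay far from all others of its group by Dixon's gap ratio. In independent groups chance would mark about 1 in 20, and 19 values were marked in 178 groups. Many of these genes were named for their differences in the same libraries, and their levels are not independent. That rate is therefore only a loose guide here. Of these, 13 belong to F7. In F7, Kcnj3 and Cdhr3 were at 0 CPM, Gadl1 at 0.524 CPM, Cx3cr1 at 0.154 CPM, Pdhx at 52.1 CPM, Hsd11b1 at 3.39 CPM and Krt10 at 0.647 CPM, each the lowest of the females. F7 was the highest female for Fasn (376 CPM), Cyp2f2 (18.9 CPM), C1rl (4.50 CPM), Cfb (19.7 CPM), Ces1d (51.8 CPM) and Gstm2 (60.0 CPM). M4, the library with skin transcripts, was the highest male for Perp (45.7 CPM) and Krt10 (181 CPM). M1, one of the Myh4-high libraries, was the lowest male for Myh7 (6290.2 CPM) and Lrrc55 (0 CPM) and the highest for Cyp2f2 (4.79 CPM). F3 was the highest female for Mgst1 (32.2 CPM), still below all males. Without F7, 613 autosomal genes were called, against 682 with it.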

How the results depend on the processing

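Against 682 calls in batch 2, DESeq2 gave 1235 and limma-voom 1415, no filter 445, a test against a fold of 1.2 63, all 11 groups in the fit 205 (146 higher in M, 59 higher in F), the fast-fibre mean as a covariate 89, length and GC offsets 432 and leaving out M1 and M2 383. RLE factors (678), leaving out the mitochondrial genome (694), a minimum count of 50 (750) and a fit of all batch 2 groups (505; 314 higher in M, 191 higher in F) stayed within 1.5 times. Leaving out single libraries gave 324 to 1018. The replicate block on numbers 1 to 7 gave 103 calls and the same 14 libraries without it 156; the numbers do not pair the mice, since same-numbered deviations correlated at -0.0997 to 0.0779 and 0 females correlated best with their own number. Of the named genes, the one reversal was Myh4 at -0.67 with the fast-fibre covariate, a mean that Myh4 is itself part of. In batch 1 (14 calls) DESeq2 gave 386 and limma-voom 163, and leaving out a library 4 to 55: 8 without F10, F12 or M12, 55 without F13, 6 without M13, 4 without M14 and 5 without M15. At 20 months (414 calls) DESeq2 gave 749 and limma-voom 660, and leaving out a library 241 to 507: 275 without F2, 241 without F3, 265 without F4 and 274 without F6. The interaction (0 calls) gave 60 with DESeq2, 1 with limma-voom and 4 without libraries of skin or marrow transcripts. The fast share difference was 9.21 to 11.6 points and the Myh7 share difference -19.9 to -16.3 points without each library. The cause of these changes was not tested. Genes near 1 CPM, such as Kcnj3 and Ryr2, rest on few counts.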

Other observations

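Genes called in the same direction in batch 2 and at 20 months held further genes of interest outside the lists described; those named here were chosen after their values were seen. Among signalling genes higher in M, Penk, which encodes the opioid precursor proenkephalin, was at 1.13, 1.76 and 2.76 CPM in F and 2.32, 3.47 and 5.22 CPM in M in batch 2. Amhr2, the receptor for anti-Mullerian hormone, was at 1.87, 3.79 and 4.77 CPM in F and 4.82, 6.04 and 8.23 CPM in M. Their log2 fold changes were 0.91 ± 0.21 and 0.87 ± 0.17 in batch 2 (edgeR, adjusted p = 0.0182 and 0.00539) and 1.13 and 0.71 at 20 months. Nampt, the rate-limiting enzyme of NAD salvage, was at 106, 112 and 138 CPM in F and 133, 150.2 and 177 CPM in M (0.36 ± 0.07, adjusted p = 0.00707; 0.26 at 20 months).

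On the female side, Cdkn1a, the cell cycle inhibitor p21 and a p53 target, was at 38.5, 102 and 239.8 CPM in F and 15.3, 35.2 and 71.2 CPM in M in batch 2 (-1.42 ± 0.38, adjusted p = 0.0358, lost without F1, F4, M2, M3, M7, M9 or M10; -0.63 ± 0.09 at 20 months). The neural cell adhesion molecule Ncam1, which muscle raises after denervation, was at 18.1, 24.6 and 41.3 CPM in F and 12.4, 15.7 and 21.97 CPM in M (-0.65 ± 0.15, adjusted p = 0.0163; -0.58 at 20 months). H19, an imprinted noncoding RNA of growing and regenerating muscle, was at 1300.5, 2127 and 2743 CPM in F and 886, 1243 and 2174 CPM in M (-0.65 ± 0.17, adjusted p = 0.0357, called in 6 of 17 leave-one-out fits; -0.41 at 20 months). Mgp, a matrix inhibitor of calcification, was at 73.0, 90.6 and 117 CPM in F and 38.2, 49.9 and 66.9 CPM in M (-0.84 ± 0.11, adjusted p = 0.000204; -0.56 at 20 months).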
